A study of Homo sapiens with 54 samples.

Results

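The genes described here are 33 known transcriptional targets of p53, taken from a list of names and read from 1 probe set per gene, the one with the highest mean. Of the 33, 30 had a probe set annotated to them alone, among 18417 genes measured that way, and 26 passed a filter that left out the lowest 40% of genes by mean over all 54 arrays, among 11050 genes tested. BTG2, FDXR and TNFRSF10C were not analysed here, TNFRSF10C because its probe set was shared with LOC254896, and XPC, SESN1, TIGAR and SPATA18 fell below the filter. The samples were cultures of H4, an established human line with a glioneuronal phenotype, harvested 48 h after transfection and read on Affymetrix Human Gene 1.0 ST arrays. Each culture received miR-103, miR-107, miR-16 or miR-195 (natural members of the miR-15/107 group), miR-320 (a natural miRNA from outside the group), miR-15b* (labelled as an antisense control), miR-107-mut1 or miR-107-mut2 (altered, non-physiological forms of miR-107), or a negative control RNA. Every transfection had 3 biological replicates, and each was read in an anti-Argonaute immunoprecipitate (IP) and in total lysate RNA. The amounts transfected and the sequences of the altered and control molecules were not used here. All results come from 1 cell line carrying an introduced small RNA.

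p53 is a transcription factor that is held low by the ubiquitin ligase MDM2 and accumulates after DNA damage and other stress. It then raises genes that stop the cell cycle, open the way to apoptosis, repair DNA and feed back on p53 itself. MicroRNAs act after transcription, by guiding Argonaute to messages that pair with bases 2 to 8 of the small RNA, the seed, so the IP holds messages that Argonaute carries and the lysate holds all messages.

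The mature sequences below, from RefSeq (GRCh38.p14), are shown because the natural members of the group carry 2 seeds, here in capitals, and their lysates are set against each other below.
miR-103: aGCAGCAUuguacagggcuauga
miR-107: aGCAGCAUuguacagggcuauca
miR-16: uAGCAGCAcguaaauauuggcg
miR-195: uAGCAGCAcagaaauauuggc
miR-15b*: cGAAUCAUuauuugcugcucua
miR-103 and miR-107 share a seed and differ at 1 position, G22C, counted from the 5′ end with the base of miR-103 first. miR-16 and miR-195 share another seed and differ within the aligned bases by G10A and U11G. All 4 hold the run AGCAGCA, which begins at base 1 in miR-103 and miR-107 and at base 2 in miR-16 and miR-195, and the sequence printed for miR-15b* lacks it. The study's design names miR-15b* while its sample titles write miR-15b, so that sequence follows the design's name and the strand transfected was not checked here.

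Levels are log2 intensities as the authors deposited them, and a change is the difference of group means (molecule minus negative control, ± SE). Calls rest on limma's moderated test, with p adjusted by Benjamini-Hochberg over the 11050 genes and a threshold of 0.05. All 8 comparisons of a fraction share the same 3 negative control arrays, so a gene that is low or high in those arrays moves in all of them. Mean levels over all genes ran between 7.71 and 7.77 in the lysate arrays and between 3.68 and 3.97 in the IP arrays. Within groups, arrays correlated across genes at 0.894 to 0.991 in the lysates and at 0.803 to 0.964 in the IP. Replicate 2 of the miR-103, miR-16 and miR-15b* lysates and replicate 1 of the miR-15b* IP stood apart from the other arrays. Calls are those on all arrays unless stated, and counts of calls and some single results are also given without these arrays. Of 11 glial, progenitor and neuronal markers measured, 10 passed the filter, and S100B, a glial marker, stood at a lysate median of 4.45, below it. VIM (12.56) and SOX2 (10.31) were the highest in the lysates, followed by ENO2 (9.85), MAP2 (8.08), NCAM1 (7.46) and RBFOX3 (7.42). NES, GFAP, NEFL and SYP stood at 6.85, 6.70, 6.69 and 6.48, near the endothelial PECAM1 (6.37), which did not pass. The filter averaged both fractions, and GFAP was at percentile 32.5 of genes in the lysates and 86.5 in the IP. Of 10 haematopoietic, epithelial and endothelial markers, KRT18 alone passed it (median 10.24), and PTPRC, which defines leukocytes, stood at 3.61.

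More p53 target genes were higher than lower in the lysates of the natural miR-15/107 group. With miR-103, 5 of the 26 members rose and 2 fell, against 17.2% of all genes tested in either direction, 8.37% higher and 8.88% lower. With miR-107, 7 rose and 2 fell (14.9% of all genes, 6.51% higher and 8.35% lower). With miR-16, 8 rose and 2 fell (17% of all genes, 9.56% higher and 7.45% lower), and with miR-195, 8 rose and 1 fell (14% of all genes, 6.82% higher and 7.22% lower). The median change of the members was 0.10 with miR-103 and with miR-107, 0.33 with miR-16 and 0.34 with miR-195, against 0.03, 0.01, 0.05 and 0.01 for all genes tested. Between 14 and 19 of the 26 members had a positive change in these 4 lysates, called or not. In the order above these were 53.8%, 61.5%, 65.4% and 73.1% of the members, against 53.1%, 51.5%, 56.5% and 51.4% of all genes. With miR-320 and miR-107-mut1 the shares were 65.4% and 73.1% (all genes 51% and 49.9%). With miR-15b* and miR-107-mut2 they were 46.2% and 53.8% (all genes 56.7% and 54.2%).

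Fewer members were called with the other molecules, apart from miR-107-mut2, and fewer of all genes were called with them too. With miR-107-mut2, 5 rose and 2 fell (13.8% of all genes, 6.23% higher and 7.58% lower), and with miR-107-mut1, 4 rose and 1 fell (8.77% of all genes, 3.33% higher and 5.44% lower). The share of members that rose was 15.4% with miR-107-mut1 and 19.2% with miR-103, where 8.37% of all genes rose. The median change of the members was 0.29 with miR-107-mut1, 0.07 with miR-107-mut2 and -0.06 with miR-15b*, against -0.00, 0.03 and 0.05 for all genes. With miR-15b*, 1 rose and 2 fell (7.54% of all genes, 3.5% higher and 4.04% lower), or 3.85% and 7.69% of the members. With miR-320, limma called 0 of the 26 (2.96% of all genes, 1.46% higher and 1.5% lower), 6 passed at an unadjusted p under 0.05, and the median change was 0.37, against 0.00 for all genes. Without the arrays that stood apart the counts were 9 with miR-103, 11 with miR-107, 12 with miR-16, 13 with miR-195, 4 with miR-320, 2 with miR-15b* and 10 with either altered form. Over all genes the shares called under that setting were higher too, at 24.1% with miR-103, 27.2% with miR-107, 21.1% with miR-16, 26.5% with miR-195, 9.01% with miR-320, 11.8% with miR-15b*, 19.2% with miR-107-mut1 and 31.3% with miR-107-mut2. Over the 8 lysates 13 members were called at least once, 10 of them higher and 4 lower, since TP53INP1 was called in both directions.

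**Figure D1:**
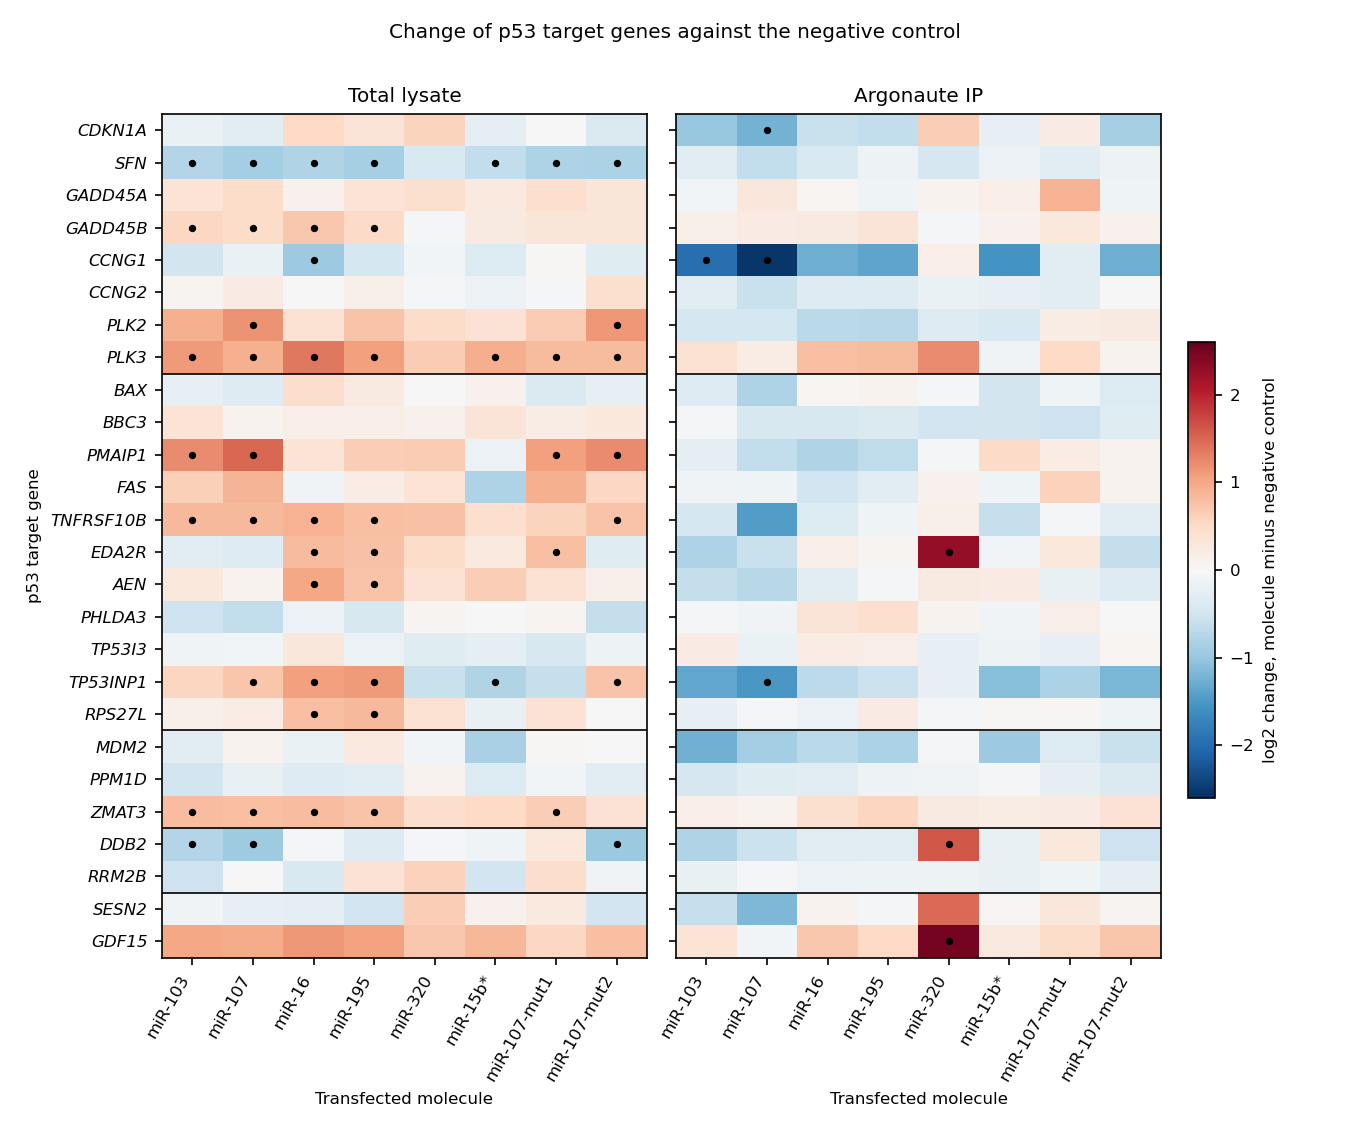
Log2 change of each of the 26 p53 target genes tested (rows, grouped by role) against the negative control, for 8 transfected molecules (columns), in total lysate (left) and Argonaute IP (right); black points mark an adjusted p under 0.05. In the lysates SFN is blue and PLK3 red in 7 called columns each, and in the IP the calls are the falls of CCNG1, CDKN1A and TP53INP1 with miR-103 or miR-107 and the rises of EDA2R, DDB2 and GDF15 with miR-320.

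**Figure D2:**
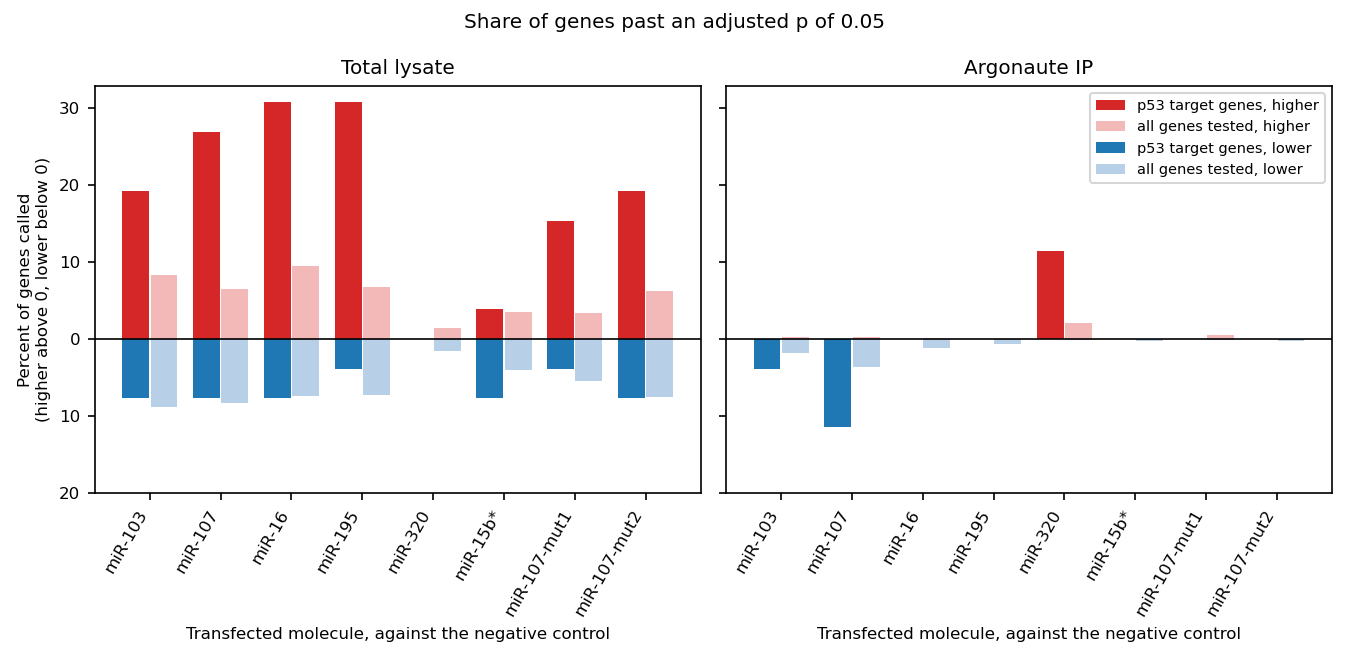
Percent of the 26 p53 target genes (dark bars) and of all 11050 genes tested (light bars) called higher (above 0) or lower (below 0) against the negative control. In the lysates the members' share called higher is 30.8% with miR-16 and with miR-195, against 9.56% and 6.82% of all genes, and it is 0% with miR-320.

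Of 8 cell cycle and checkpoint members tested, 2 rose and 1 fell with miR-103, 3 and 1 with miR-107, 2 and 2 with miR-16, and 2 and 1 with miR-195. Of all genes, 8.37%, 6.51%, 9.56% and 6.82% rose and 8.88%, 8.35%, 7.45% and 7.22% fell in the same order. SFN fell in 7 of 8 lysates. It encodes 14-3-3 sigma, which holds damaged cells before mitosis. SFN read 7.58, 7.57 and 7.32 with miR-103, 7.57, 7.25 and 7.33 with miR-107, 7.53, 7.58 and 7.34 with miR-16, and 7.77, 7.07 and 7.33 with miR-195, against 8.61, 8.13 and 8.04 in the negative control. Every array of these 4 groups lay below every control array. The changes were -0.77 ± 0.19, -0.88 ± 0.19, -0.78 ± 0.19 and -0.87 ± 0.19 (adjusted p = 0.0077, 0.0025, 0.007 and 0.003), with -0.65 for miR-15b* (adjusted p = 0.042), -0.81 for miR-107-mut1 (0.0088) and -0.82 for miR-107-mut2 (0.005). With miR-320 the difference was -0.40 and was not called (adjusted p = 0.44). Control replicate 1 was the highest of all 27 lysates. Without it SFN changed by -0.59 with miR-103, -0.60 with miR-16, -0.63 with miR-107-mut1 and -0.47 with miR-15b* (adjusted p = 0.056, 0.052, 0.071 and 0.17), none of them called. Without miR-107-mut1 replicate 3 the adjusted p was 0.056, and the miR-15b* call was also lost without control replicate 2 or any 1 of its own arrays (0.073 to 0.082), and without the arrays that stood apart (-0.67, 0.054). With only the arrays compared the miR-16 and miR-15b* calls were lost (0.053 and 0.19). Against the mean of the negative control, miR-320 and miR-15b*, the miR-103, miR-16 and miR-107-mut1 calls were lost (adjusted p = 0.079, 0.067 and 0.073).

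PLK3, a polo-like kinase of the stress response, rose in 7 of 8 lysates. It read 8.65, 9.17 and 8.71 with miR-103, 8.77, 8.65 and 8.56 with miR-107, 9.01, 9.82 and 8.52 with miR-16 and 8.75, 8.93 and 8.74 with miR-195, against 8.13, 7.66 and 7.43 in the negative control. All 12 arrays exceeded the highest control array. The changes were 1.11 ± 0.25, 0.92 ± 0.25, 1.38 ± 0.25 and 1.07 ± 0.25 (adjusted p = 0.0036, 0.014, 4.6e-04 and 0.0048). miR-15b*, miR-107-mut1 and miR-107-mut2 raised it by 0.95, 0.82 and 0.83 (adjusted p = 0.021, 0.044 and 0.031), and with miR-320 it stood 0.67 above the control without a call (adjusted p = 0.21). The miR-320 change was called once the arrays that stood apart were left out (0.67, adjusted p = 0.017). Against the mean of the 3 controls, PLK3 was no longer called with miR-103, miR-107, miR-195, miR-107-mut1 or miR-107-mut2 (changes 0.56, 0.38, 0.53, 0.28 and 0.28, adjusted p = 0.069, 0.26, 0.089, 0.51 and 0.4). With 1 array left out, the miR-107 call was lost without miR-107 replicate 1 or control replicate 2 or 3 (0.053 to 0.089). The miR-15b* call was lost without miR-15b* replicate 2 or control replicate 2 or 3 (0.094 to 0.13), and the calls of both altered forms were lost without any 1 of their own arrays or control replicate 2 or 3 (0.057 to 0.21). With only the arrays compared the miR-16 and miR-15b* calls were lost (0.057 and 0.17), and with no filter that of miR-107-mut1 (0.058).

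PLK2, a second stress-induced polo-like kinase, was called higher with miR-107 and miR-107-mut2. It read 11.16, 11.24 and 11.40 with miR-107 and 11.13, 11.05 and 11.49 with miR-107-mut2, against 10.14, 9.92 and 10.23 in the negative control. The groups did not overlap, and the changes were 1.17 ± 0.35 and 1.13 ± 0.35 (adjusted p = 0.023 and 0.031). Replicate 2 was the lowest array with miR-103 (10.37, against 11.29 and 11.40 in its other arrays), miR-16 (9.57, against 10.74 and 11.18) and miR-15b* (9.60, against 10.81 and 10.99). Without those 3 arrays PLK2 was called higher in 5 further lysates, by 1.25 with miR-103, 0.87 with miR-16, 0.75 with miR-195, 0.81 with miR-15b* and 0.67 with miR-107-mut1 (adjusted p = 4.5e-05, 0.0018, 0.002, 0.0061 and 0.0063). The miR-107 call was lost without miR-107 replicate 2 or 3 or control replicate 1 or 2 (0.052 to 0.091), and the miR-107-mut2 call without any 1 of the 6 arrays compared (0.059 to 0.12).

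GADD45B, a stress sensor that binds kinases of the MAP kinase pathway, rose with the 4 natural members of the group. It read 8.45, 8.86 and 8.67 with miR-103, 8.57, 8.56 and 8.63 with miR-107, 8.61, 9.30 and 8.57 with miR-16 and 8.64, 8.64 and 8.58 with miR-195, against 8.19, 7.95 and 8.22 in the negative control. No array of these groups overlapped the control, and the changes were 0.54, 0.47, 0.70 and 0.50 (each ± 0.15, adjusted p = 0.016, 0.038, 0.0021 and 0.027). The miR-103 call was lost without miR-103 replicate 2 or control replicate 2 (0.093 for each) and the miR-107 call without any 1 of the 6 arrays compared (0.056 to 0.18). The miR-195 call was lost without any 1 miR-195 array or control replicate 2 (0.06 to 0.14). With only the arrays compared the miR-103 and miR-16 calls were lost (0.051 and 0.12). GADD45B was also called higher with miR-107-mut1 and miR-107-mut2 once the arrays that stood apart were left out (0.31 and 0.32, adjusted p = 0.021 and 0.014). GADD45A, its relative, stood 0.12 to 0.47 above the control in all 8 lysates with no call (lowest adjusted p = 0.36).

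CDKN1A, the gene for the p21 inhibitor of cyclin-dependent kinases and the classic marker of p53 activity, was called in 0 of 8 lysates by limma. It read 9.78, 10.09 and 9.46 with miR-103, 10.06, 9.64 and 9.30 with miR-107, 10.20, 11.42 and 9.79 with miR-16, and 10.27, 10.70 and 9.91 with miR-195, against 10.43, 9.80 and 9.64 in the negative control. Every one of the 8 groups overlapped the control arrays. Its changes lay between -0.37 with miR-107-mut2 and 0.58 with miR-320 (SE 0.37, lowest adjusted p = 0.37). CCNG1, which encodes cyclin G1, fell with miR-16, with a change of -0.94 ± 0.32 (adjusted p = 0.049). Its arrays read 11.39, 10.34 and 11.75 with miR-16, against 11.86, 12.22 and 12.21 in the negative control. Replicate 2 was the low one, and without it the change was -0.53 (adjusted p = 0.34). The call was also lost without miR-16 replicate 1 or any 1 control array (0.055 to 0.15), after cyclic loess (0.058), with no filter (0.058) and with only the arrays compared (0.18). With all the arrays that stood apart left out, CCNG1 was called lower with miR-16 (-0.53, adjusted p = 0.04) and with miR-195 (-0.46, 0.038). CCNG2, an unconventional cyclin linked to arrest, was not called in any lysate (lowest adjusted p = 0.15).

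**Figure D3:**
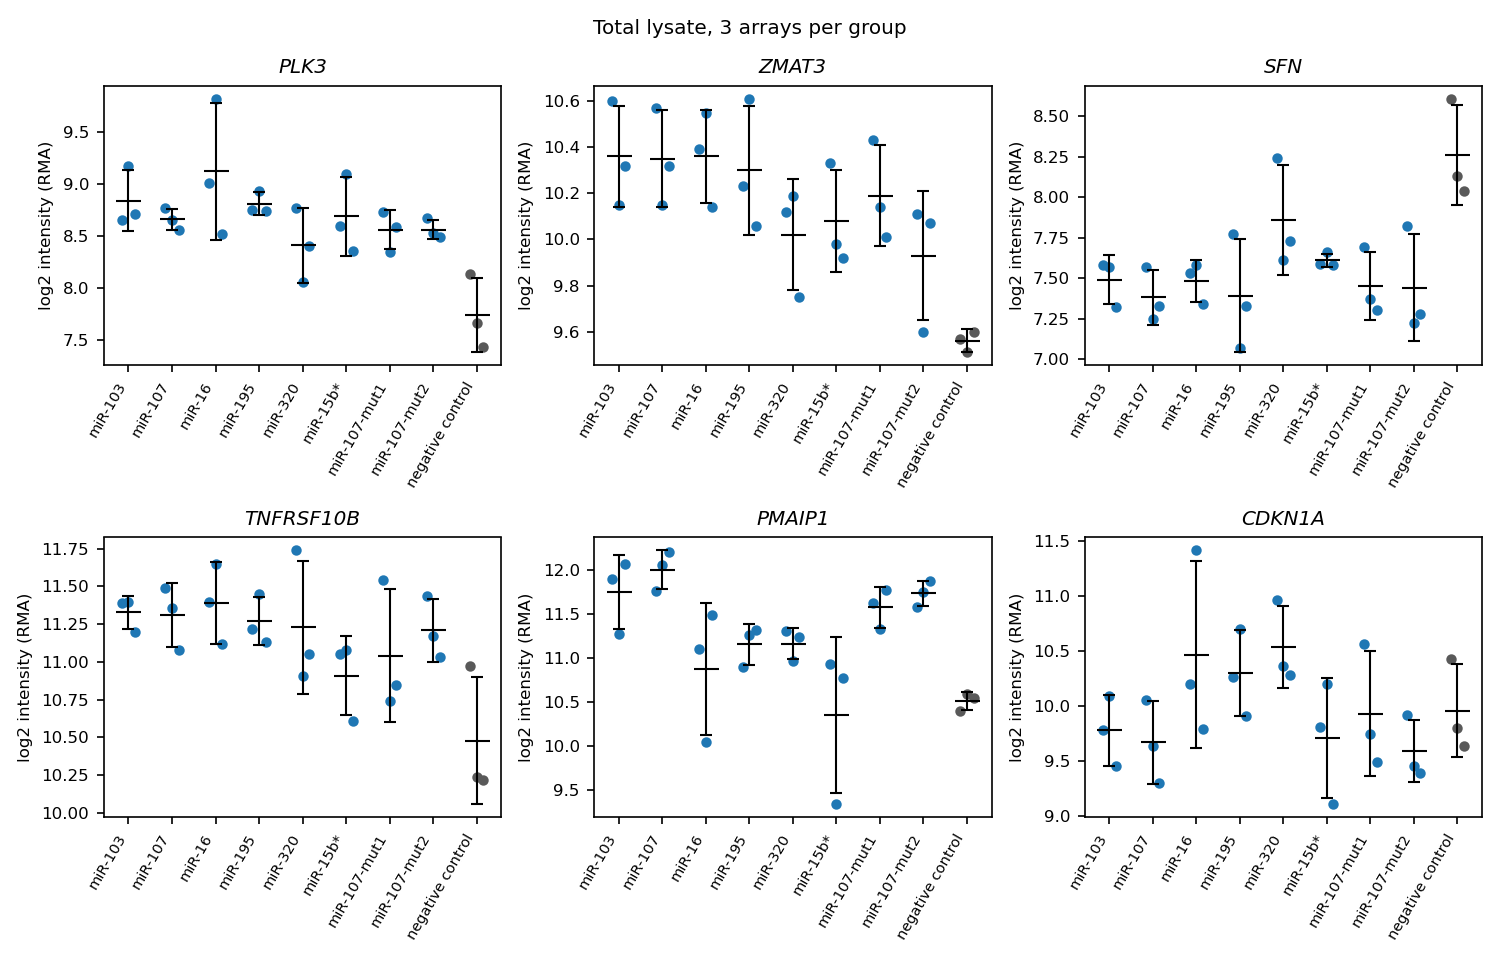
Log2 intensity of 6 p53 target genes in every lysate array (points; blue, transfected molecules; grey, negative control), with mean and SD of 3 arrays (bars). PLK3, ZMAT3 and TNFRSF10B have higher means in all 8 transfections than in the control, SFN has lower means in all 8, PMAIP1 is highest with miR-107, and CDKN1A overlaps the control throughout.

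Of 11 apoptosis members tested, 2 rose with miR-103, 3 with miR-107, and 5 each with miR-16 and miR-195, and 0 fell in these lysates. Among all genes 8.37%, 6.51%, 9.56% and 6.82% rose there and 8.88%, 8.35%, 7.45% and 7.22% fell. The members' increases fell on a BH3-only gene, a death receptor and nuclear effectors, while the pore-forming protein gene was not called against the control. PMAIP1 encodes NOXA, a BH3-only protein that neutralises MCL1. It read 11.89, 11.27 and 12.06 with miR-103, 11.76, 12.05 and 12.20 with miR-107 and 11.58, 11.74 and 11.87 with miR-107-mut2, against 10.40, 10.59 and 10.54 in the negative control. All 9 arrays exceeded the control arrays, with changes of 1.23, 1.49 and 1.22 (each ± 0.33, adjusted p = 0.012, 0.0026 and 0.014), and miR-107-mut1 raised it by 1.06 (adjusted p = 0.049). The miR-16 arrays read 11.10, 10.04 and 11.49, spanning the control. Their change of 0.36 was not called (adjusted p = 0.49), and neither was the 0.64 of miR-195 (0.24). Without the arrays that stood apart PMAIP1 was called with miR-16 (0.78, adjusted p = 0.0015), miR-195 (0.64, 0.0023) and miR-320 (0.65, 0.0062) too. The call was lost without replicate 3 for miR-103 (0.057), without replicate 3 or control replicate 1 for miR-107-mut2 (0.055 and 0.051), and for miR-107-mut1 without any 1 of the 6 arrays compared (0.064 to 0.18) or with no filter (0.063).

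TNFRSF10B encodes DR5, a receptor for the death ligand TRAIL. It read 11.39, 11.40 and 11.20 with miR-103, 11.49, 11.36 and 11.08 with miR-107, 11.40, 11.65 and 11.12 with miR-16, and 11.22, 11.45 and 11.13 with miR-195, against 10.97, 10.24 and 10.22 in the negative control. No array of these groups fell to the control range. Changes were 0.85, 0.84, 0.91 and 0.79 (each ± 0.23, adjusted p = 0.014, 0.016, 0.0085 and 0.025), and miR-107-mut2 raised it by 0.74 (0.039). All 5 calls were lost against the mean of the 3 controls (changes 0.34 to 0.52, adjusted p = 0.066 to 0.26). They were also lost without control replicate 2 or 3 (0.057 to 0.17), without miR-107 replicate 1 or 2 (0.075 and 0.057), and without miR-107-mut2 replicate 1 or 2 (0.14 and 0.091). Replicate 2 left out of miR-16 or miR-195 gave 0.052 and 0.12, and the miR-16 call was lost with only the arrays compared (0.077). TNFRSF10B was called higher with miR-320 too once the arrays that stood apart were left out (0.76, adjusted p = 0.048). FAS, another death receptor, was not called in any lysate (-0.80 to 0.92, lowest adjusted p = 0.093). Without the arrays that stood apart FAS was called higher with miR-103 (0.90), miR-107 (0.88) and miR-107-mut1 (0.92; adjusted p = 0.0085, 0.0035 and 0.0038).

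TP53INP1 moved in both directions. Its nuclear protein promotes phosphorylation of p53 and takes part in autophagy. It read 10.79, 10.94 and 11.21 with miR-16 and 10.71, 11.29 and 11.05 with miR-195, against 9.72, 9.89 and 10.16 in the negative control. It read 10.33, 10.77 and 10.84 with miR-107 and 9.45, 8.73 and 9.20 with miR-15b*. All of the first 9 arrays lay above the control and the 3 of miR-15b* below it. TP53INP1 rose by 1.06 with miR-16, 1.10 with miR-195, 0.73 with miR-107 and 0.75 with miR-107-mut2 (each ± 0.20, adjusted p = 6.8e-04, 4.8e-04, 0.015 and 0.014). It fell with miR-15b*, with a change of -0.79 (adjusted p = 0.017), and with miR-320 and miR-107-mut1 it stood -0.57 and -0.60 from the control, neither called (0.17 and 0.071). The miR-107-mut1 change was called once the arrays that stood apart were left out (-0.60, adjusted p = 0.03). The miR-107 and miR-107-mut2 calls were lost without their own replicate 2 or 3 or control replicate 1 or 2 (0.052 to 0.084). The miR-15b* call was lost without miR-15b* replicate 2 (-0.59, 0.11) or control replicate 2 or 3 (0.059 and 0.1), without the arrays that stood apart (-0.59, 0.079), and with only the arrays compared (0.19).

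EDA2R, AEN and RPS27L rose with miR-16 and miR-195. EDA2R encodes a receptor for the ectodysplasin A2 form, AEN a nuclease of apoptotic nuclei and RPS27L a p53-induced relative of the ribosomal protein RPS27, whose similar sequence may share probes. EDA2R read 9.71, 10.23 and 9.77 with miR-16 and 9.55, 10.39 and 9.64 with miR-195, against 9.44, 8.93 and 8.90 in the negative control. AEN read 9.77, 10.58 and 9.60 with miR-16 and 9.43, 10.15 and 9.58 with miR-195, against 9.21, 8.98 and 8.76 in the negative control. RPS27L read 7.80, 8.43 and 8.41 with miR-16 and 7.69, 8.77 and 8.37 with miR-195, against 7.30, 7.62 and 7.39 in the negative control. For each gene both groups stayed above the control, in the case of RPS27L with miR-195 by a narrow margin. The changes with miR-16 and miR-195 were 0.82 and 0.77 for EDA2R (adjusted p = 0.012 and 0.018), 1.00 and 0.74 for AEN (0.004 and 0.036) and 0.78 and 0.84 for RPS27L (0.012 and 0.0074). EDA2R also rose with miR-107-mut1, by 0.79 (adjusted p = 0.023). Replicate 2 of miR-16 and of miR-195 was the highest array of its group for each gene. Without it EDA2R and RPS27L were not called with miR-16 (0.65 and 0.67, adjusted p = 0.078 and 0.067), and none of the 3 with miR-195 (0.51, 0.52 and 0.59 for EDA2R, AEN and RPS27L, adjusted p = 0.17, 0.24 and 0.084). The EDA2R calls were also lost without control replicate 2 or 3 (0.062 to 0.12) and, with miR-107-mut1, without its replicate 1 or 3 (0.11 and 0.083). The AEN call with miR-195 was also lost without miR-195 replicate 3 or control replicate 2 or 3 (0.057 to 0.16) and against the mean of the 3 controls (0.18), as was that of EDA2R with miR-107-mut1 (0.056). With only the arrays compared the 3 genes were not called with miR-16 (0.072 for EDA2R, 0.078 for AEN and 0.075 for RPS27L), nor EDA2R with miR-195 (0.058). With all the arrays that stood apart left out, EDA2R and RPS27L stayed called with miR-16 (0.65 and 0.67, adjusted p = 0.046 and 0.05).

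BAX, which opens the outer mitochondrial membrane, ran between -0.38 and 0.45 against the control with no call (lowest adjusted p = 0.17). BBC3, the gene of the BH3-only protein PUMA, lay 0.10 to 0.35 above the control in all 8 lysates, also with no call (lowest adjusted p = 0.11). PHLDA3, a repressor of AKT, and TP53I3, a quinone oxidoreductase, were not called either (lowest adjusted p = 0.088 and 0.13).

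Of the genes that feed back on p53, ZMAT3 rose in 5 lysates and MDM2 and PPM1D were not called in any. ZMAT3 encodes a zinc finger protein that binds RNA. It read 10.60, 10.15 and 10.32 with miR-103, 10.57, 10.15 and 10.32 with miR-107, 10.39, 10.55 and 10.14 with miR-16, and 10.23, 10.61 and 10.06 with miR-195, against 9.57, 9.51 and 9.60 in the negative control. The control arrays lay within 0.09 of each other, and the arrays of all 8 transfections lay above them or, at 9.60 for 1 miR-107-mut2 array, level after rounding. The changes were 0.80, 0.79, 0.80 and 0.74 (each ± 0.18, adjusted p = 0.0027, 0.0028, 0.0027 and 0.0055), and 0.64 with miR-107-mut1 (0.025). The miR-195 call was lost without miR-195 replicate 2 (0.056) and against the mean of the 3 controls (0.057). That of miR-107-mut1 was lost without its replicate 1 or 2 or any 1 control array (0.054 to 0.13) and against the mean of the 3 controls (0.22). The changes of MDM2 ran between -0.84 and 0.26 over the 8 lysates (lowest adjusted p = 0.16). PPM1D, the phosphatase WIP1, ran between -0.49 and 0.10 (lowest adjusted p = 0.09).

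DDB2, which recognises ultraviolet damage for nucleotide excision repair, fell with miR-103, miR-107 and miR-107-mut2. It read 8.63, 8.99 and 8.80 with miR-103, 8.80, 8.58 and 8.57 with miR-107, and 8.77, 8.39 and 8.70 with miR-107-mut2, against 9.70, 9.46 and 9.58 in the negative control. The 9 arrays lay clear of the control. The changes were -0.77, -0.93 and -0.96 (each ± 0.20, adjusted p = 0.0078, 0.0016 and 0.0014), and these 3 calls held under every alternative run. With miR-16 and miR-195 the values were -0.03 and -0.34, neither called (adjusted p = 0.92 and 0.31). The miR-195 change was called once the arrays that stood apart were left out (-0.34, adjusted p = 0.042). RRM2B, a subunit of ribonucleotide reductase that supplies nucleotides for repair, was not called (-0.53 to 0.60, lowest adjusted p = 0.47).

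GDF15, a secreted stress cytokine, stood 0.54 to 1.12 above the control in all 8 lysates without a call (lowest adjusted p = 0.08). Its control arrays read 12.66, 11.44 and 11.42, and the highest of them lay within most other groups. SESN2, an inhibitor of mTORC1, was not called (-0.50 to 0.63, lowest adjusted p = 0.55). Of the 4 members below the filter, tested with all 18417 genes, XPC, a damage sensor of excision repair, rose with miR-16 (0.45) and miR-195 (0.53; adjusted p = 0.011 and 0.0029). SESN1, a second sestrin, fell with miR-15b* (-1.16, adjusted p = 0.0014), and TIGAR and SPATA18 were not called in any lysate.

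The miR-16 and miR-195 lysates were next set directly against the miR-103 and miR-107 lysates, the members of the group with the other seed. Of the 26 p53 target genes 5 were higher and 1 lower with miR-16 and miR-195, against 10% of all genes, 6.47% higher and 3.57% lower. EDA2R averaged 9.88 ± 0.34 with miR-16 and miR-195 and 8.78 ± 0.21 with miR-103 and miR-107 (SD, n = 6 each). Its change of 1.10 ± 0.15 (adjusted p = 4.4e-05) separated all 6 arrays of each side. DDB2 averaged 9.39 ± 0.37 and 8.73 ± 0.17 in the same order and AEN 9.85 ± 0.43 and 9.16 ± 0.15, again without overlap, with changes of 0.66 and 0.69 (0.0025 and 0.0081). RPS27L and BAX differed by 0.64 and 0.61 (0.0061 and 0.011) with arrays that overlapped, and RPS27L was not called with only the arrays compared (0.052). PMAIP1 was lower with miR-16 and miR-195, with a change of -0.86 ± 0.23 (adjusted p = 0.02), at 11.01 ± 0.52 against 11.87 ± 0.33 with miR-103 and miR-107. That call was lost without miR-103 replicate 1 or 3, miR-107 replicate 3, miR-16 replicate 2 or miR-195 replicate 1 (-0.82 to -0.65, adjusted p = 0.05 to 0.062). Without the arrays that stood apart FAS and PLK2 were called lower (-0.62 and -0.40) and TP53INP1 higher (0.44) too (adjusted p = 0.014, 0.041 and 0.05), where 16.3% of all genes were called. Cell type markers moved in the same comparison, SOX2 by -1.01 and VIM by -0.25 (2 of 10 glial, progenitor and neuronal markers tested, adjusted p = 0.0058 and 0.011) and the epithelial KRT18 by 0.52 (0.012), and their part in the members' differences was not tested.

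**Figure D4:**
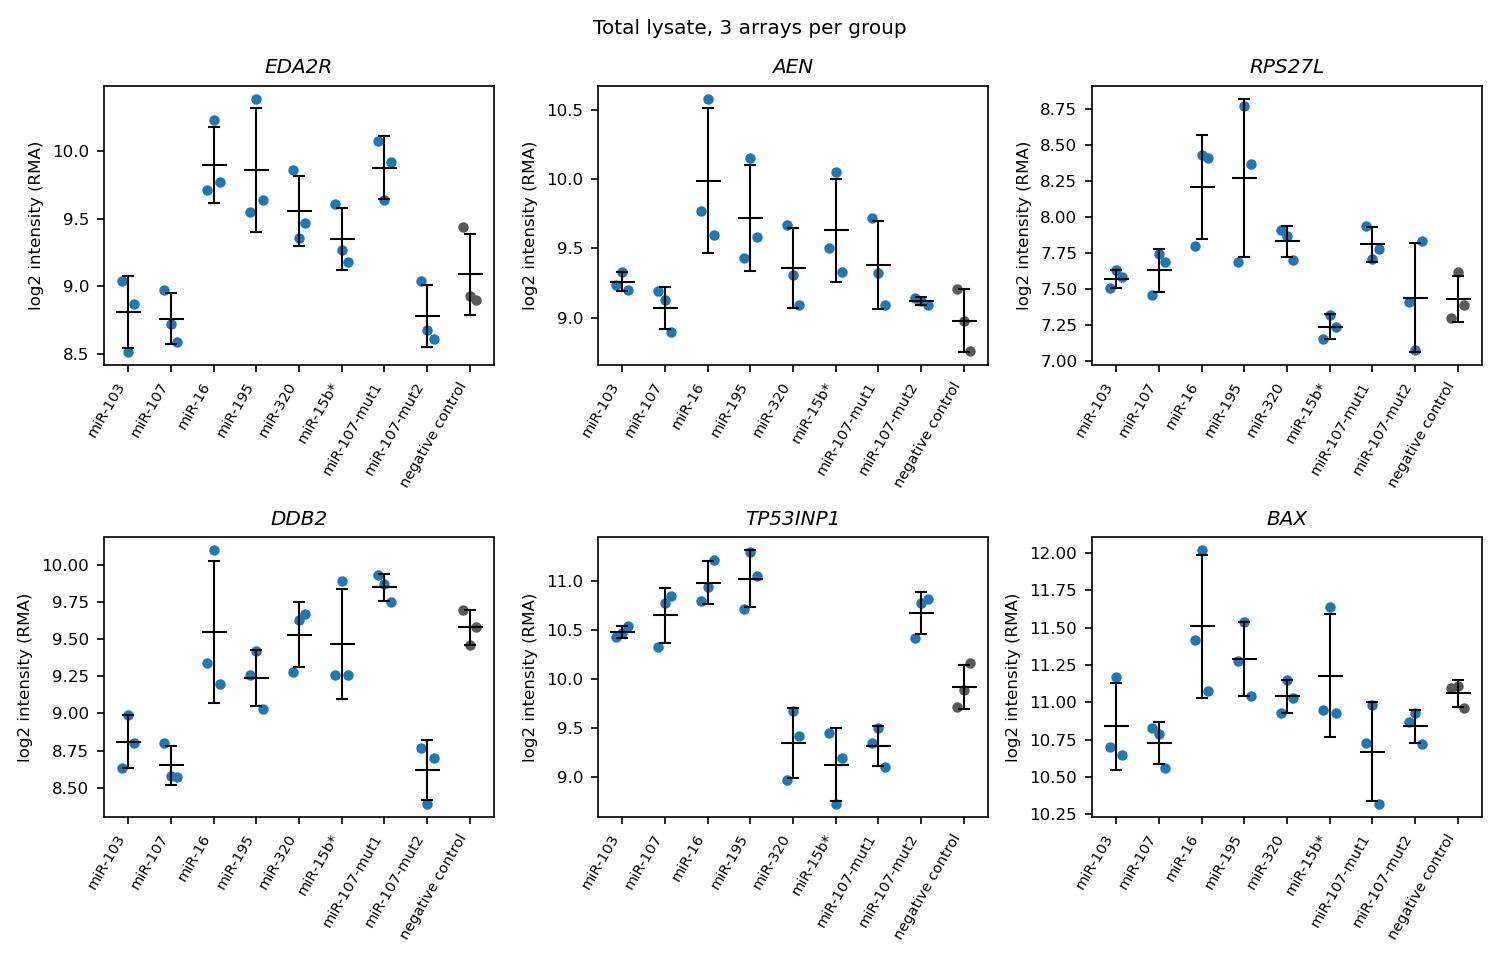
Log2 intensity of 6 p53 target genes in every lysate array (points; blue, transfected molecules; grey, negative control), with mean and SD of 3 arrays (bars). EDA2R, AEN and DDB2 arrays with miR-16 and miR-195 all lie above those with miR-103 and miR-107, and TP53INP1 is high with the 4 natural members and miR-107-mut2 and low with miR-320, miR-15b* and miR-107-mut1.

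Promoters of 3 of these members are shown, those of the genes differing between the 2 pairs of molecules that held a match to the p53 half-site consensus. Each match is in capitals, and the consensus is a palindrome read alike on both strands (RefSeq, GRCh38.p14, strand of the gene, 250 bases before to 50 after the start). They are DDB2 (chr11:47214724-47215023, plus strand), AEN (chr15:88621090-88621389, plus strand) and RPS27L (chr15:63157428-63157727, minus strand).
DDB2: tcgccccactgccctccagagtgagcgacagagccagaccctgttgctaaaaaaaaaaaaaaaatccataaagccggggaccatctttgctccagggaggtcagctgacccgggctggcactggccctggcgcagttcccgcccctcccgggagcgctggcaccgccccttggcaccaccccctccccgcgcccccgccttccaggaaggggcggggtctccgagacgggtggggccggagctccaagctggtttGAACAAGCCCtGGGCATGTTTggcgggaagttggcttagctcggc
AEN: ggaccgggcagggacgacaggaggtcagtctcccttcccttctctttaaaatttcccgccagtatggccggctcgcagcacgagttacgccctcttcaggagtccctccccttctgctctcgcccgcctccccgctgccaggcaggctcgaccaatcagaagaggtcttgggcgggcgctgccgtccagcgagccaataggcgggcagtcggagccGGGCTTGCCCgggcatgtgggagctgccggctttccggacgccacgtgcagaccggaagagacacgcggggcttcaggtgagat
RPS27L: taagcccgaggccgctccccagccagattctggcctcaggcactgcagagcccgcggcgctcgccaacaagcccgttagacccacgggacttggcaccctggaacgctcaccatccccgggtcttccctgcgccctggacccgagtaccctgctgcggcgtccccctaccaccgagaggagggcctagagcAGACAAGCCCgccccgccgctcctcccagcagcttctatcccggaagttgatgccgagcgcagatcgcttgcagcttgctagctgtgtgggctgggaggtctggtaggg
Of 27 members with a promoter sequence 7 (25.9%) held a half-site, against 8.1% of 27305 genes. A full site, a pair of half-sites at most 13 bases apart, was found in DDB2 alone, against 0.04% of all genes. EDA2R, BAX and PMAIP1, which also differed between the 2 pairs, held no match in these windows, and neither did CDKN1A and MDM2. The members were listed as known p53 targets, so a higher share with a site follows from the choice of the list. Whether the sites had a part in the differences between the 2 pairs was not tested.

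The altered forms of miR-107 were set against miR-107 to see which member changes stayed with the molecule. With miR-107-mut1, 2 members were higher and 1 lower than with miR-107 (13.5% of all genes, 6.51% higher and 6.96% lower). DDB2 read 9.93, 9.87 and 9.75 with miR-107-mut1, against 8.80, 8.58 and 8.57 with miR-107, a change of 1.20 ± 0.20 (adjusted p = 1.4e-04). EDA2R read 10.08, 9.64 and 9.92, against 8.97, 8.72 and 8.59 with miR-107, a change of 1.12 ± 0.22 (8.7e-04). TP53INP1 read 9.35, 9.50 and 9.11 with miR-107-mut1, against 10.33, 10.77 and 10.84 with miR-107, a change of -1.33 ± 0.20 (6.6e-05). None of the 3 genes had overlapping arrays, and all 3 calls held under every alternative run. Of the 10 glial, progenitor and neuronal markers, NCAM1 (1.30) and MAP2 (0.62) were higher and VIM (-0.31) lower in this comparison (adjusted p = 8.3e-06, 0.023 and 0.017), and their part in it was not tested. With miR-107-mut2 limma called 0 members against miR-107 (0.0814% of all genes, 0.0543% higher and 0.0271% lower), and 1 passed at an unadjusted p under 0.05. Its differences from miR-107 ran between -0.42 for ZMAT3 and 0.20 for CCNG2, with SEs of 0.18 and 0.19.

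In the Argonaute IP fewer members were called, and the direction differed by molecule. With miR-107, 3 members fell and 0 rose (3.83% of all genes, 0.217% higher and 3.61% lower). With miR-103, 1 fell (2.03% of all genes, 0.235% higher and 1.79% lower), and with miR-320, 3 rose (2.21% of all genes, 2.12% higher and 0.0905% lower). limma called 0 members with miR-16 (1.26% of all genes, 0.136% higher and 1.12% lower) and miR-195 (0.67%, 0.0543% higher and 0.615% lower), where 2 and 3 members passed at an unadjusted p under 0.05. It called 0 with miR-15b* (0.217%, 0.00905% higher and 0.208% lower), miR-107-mut1 (0.742%, 0.579% higher and 0.163% lower) and miR-107-mut2 (0.344%, 0.0271% higher and 0.317% lower), where 4, 3 and 4 passed unadjusted. Without the array that stood apart the counts were 4 with miR-103, 6 with miR-107, 4 with miR-320 and 0 with the others, and the shares of all genes called were 3.81% with miR-103, 8.95% with miR-107 and 2.99% with miR-320. The median of the members was -0.51 with miR-107 and -0.27 with miR-103, and that of all genes -0.19 and -0.09 (-0.17 with miR-15b*). With the lowest 60% of genes left out, the median of the remaining genes was -0.38 with miR-107 and -0.22 with miR-103. The shift was thus larger among genes of higher level, and the part of level in the members' medians was not tested. Falls called on all arrays are given also after cyclic loess, which removes the shift of the median.

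CCNG1 messages were lower in the IP with both miR-103 and miR-107. The arrays read 5.02, 4.98 and 4.92 with miR-103 and 4.58, 3.90 and 4.78 with miR-107, against 6.68, 6.60 and 7.54 in the negative control. Neither group came near the control range. The changes were -1.97 ± 0.43 (3.92-fold lower, adjusted p = 0.015) and -2.52 ± 0.43 (5.75-fold lower, adjusted p = 0.0016), and after cyclic loess -1.74 and -2.10 (0.0016 and 2.4e-04). In the lysates of these molecules CCNG1 was not called. The miR-103 call was lost without any 1 miR-103 array or control replicate 3 (0.056 to 0.14).

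CDKN1A and TP53INP1 were also lower in the miR-107 IP. CDKN1A read 6.11, 5.24 and 5.34 with miR-107, against 6.99, 6.49 and 6.91 in the negative control, and TP53INP1 read 5.53, 4.64 and 4.84, against 6.49, 6.24 and 6.85. Neither gene's groups overlapped. The changes were -1.23 ± 0.33 for CDKN1A (adjusted p = 0.038) and -1.52 ± 0.37 for TP53INP1 (adjusted p = 0.025). After cyclic loess they were -0.64 (adjusted p = 0.13, not called) and -1.13 (0.02). Both calls were lost without miR-107 replicate 2 or 3 or control replicate 1 or 3 (0.062 to 0.19). Without the array that stood apart BAX, SFN and TNFRSF10B were called lower with miR-107 as well (-0.80, -0.63 and -1.45, adjusted p = 0.032, 0.043 and 0.018), and DDB2, MDM2 and TP53INP1 with miR-103 (-0.79, -1.24 and -1.35, adjusted p = 0.038, 0.03 and 0.039). These further falls are not given after cyclic loess here.

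With miR-320, GDF15, EDA2R and DDB2 were higher in the IP, while their lysates were not called. GDF15 read 10.21, 9.45 and 9.71 with miR-320, against 8.01, 6.65 and 7.26 in the negative control. EDA2R read 6.93, 6.94 and 7.16, against 4.56, 4.45 and 5.19, and DDB2 read 6.21, 6.18 and 6.52, against 4.65, 4.42 and 4.99. In each gene the lowest miR-320 array exceeded the highest control array by more than 1 log2 unit. The changes were 2.48 ± 0.50 for GDF15 (5.59-fold, adjusted p = 0.0049), 2.28 ± 0.48 for EDA2R (4.85-fold, 0.0072) and 1.62 ± 0.24 for DDB2 (3.07-fold, 2.2e-04). In the lysates of miR-320 the same genes differed by 0.70, 0.47 and -0.06 (adjusted p = 0.64, 0.4 and 1). Whether the IP and lysate changes of miR-320 differ was not tested. Without control replicate 2 the GDF15 and EDA2R calls were lost (2.16 and 2.14, adjusted p = 0.058 and 0.057). PLK3 and SESN2 stood 1.23 and 1.47 above the control in this IP and were not called (adjusted p = 0.31 and 0.48), though PLK3 was called without the array that stood apart (1.23, adjusted p = 0.021).

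**Figure D5:**
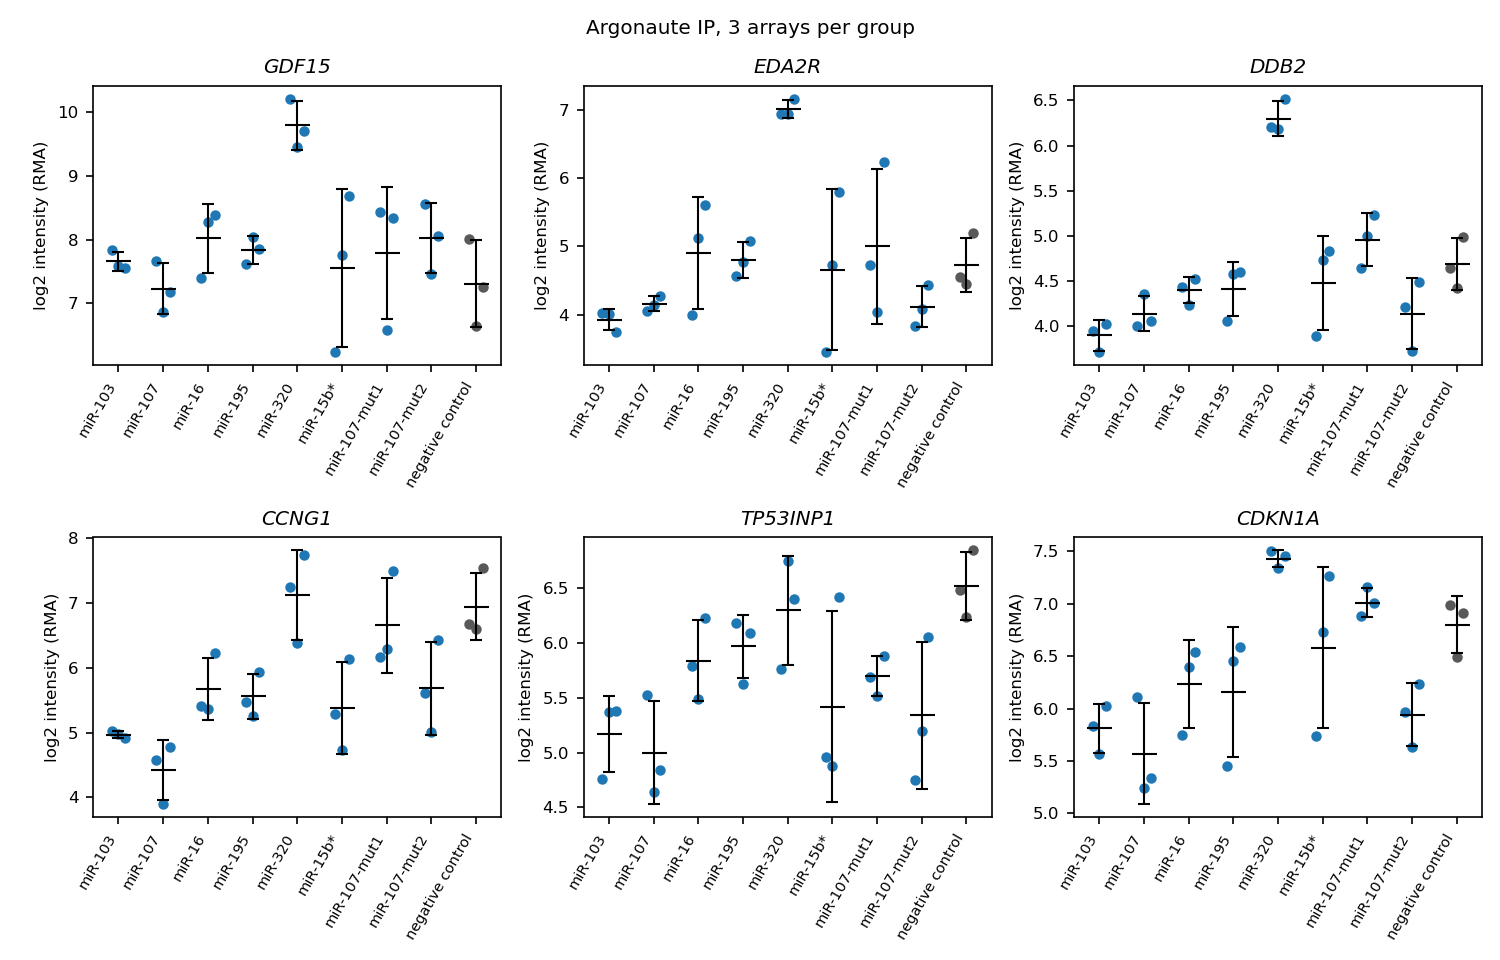
Log2 intensity of 6 p53 target genes in every Argonaute IP array (points; blue, transfected molecules; grey, negative control), with mean and SD of 3 arrays (bars). GDF15, EDA2R and DDB2 are highest with miR-320, at means of 9.79, 7.01 and 6.30, and the means of CCNG1, TP53INP1 and CDKN1A are lowest with miR-107.

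The IP change was set against the lysate change in a fit of all 54 arrays. That fit did not pair the IP and lysate arrays of a replicate, and it took 1 spread per gene for both fractions. Its adjusted p rest on these 2 choices. For miR-103 and miR-107 together 4 members had a lower IP change than lysate change and 0 a higher one (6.54% of all genes, 1.69% higher and 4.85% lower). For miR-16 and miR-195 together 2 had a lower one (2.91% of all genes, 0.842% higher and 2.07% lower). IP and lysate arrays were on different mean levels, as given above, and such a difference cancels a constant offset between them but not a difference of scale. TP53INP1 was among them for both pairs, with differences of -2.08 (adjusted p = 2.3e-04) for miR-103 and miR-107 and -1.70 (0.0056) for miR-16 and miR-195. Its lysate changes in these 4 transfections were 0.56 to 1.10 and its IP changes -1.52 to -0.56.

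Regulators of p53 leaned lower in most lysates, while further p53 targets moved both ways. Of 18 regulators tested, 15 had a negative change with each of miR-103, miR-107, miR-16, miR-195 and miR-107-mut2 (medians -0.32, -0.20, -0.30, -0.17 and -0.24). With miR-320 9 of them did. Over the 8 lysates limma called 0 higher and 0 to 3 lower (1.46% to 9.56% of all genes higher and 1.5% to 8.88% lower). PPP1R13B, which encodes the p53 partner ASPP1, fell in 7 of 8 (up to -0.69 with miR-107-mut1, adjusted p = 2.4e-06). CHEK1, the checkpoint kinase, fell with miR-103 and miR-16 (-1.23 and -1.35, adjusted p = 0.018 and 0.0097), CREBBP with miR-103 and miR-107-mut2, and RPL26 with miR-107-mut2. MDM4, the MDM2 relative that inhibits p53, lay between -0.65 and 0.13 with no call. Of 27 further p53 targets tested, 7 rose and 6 fell with miR-103, 5 and 4 with miR-107, 7 and 1 with miR-16, and 6 and 1 with miR-195. Of all genes, 8.37%, 6.51%, 9.56% and 6.82% rose and 8.88%, 8.35%, 7.45% and 7.22% fell in these 4 lysates. PRDM1 and LIF rose in 7 lysates each, IGFBP3 rose in 5 and CMBL fell in 7. In the miR-320 IP 4 of the 27 further targets rose (2.12% of all genes), namely PRDM1 (2.37), BTG1 (2.08), SUSD6 (1.96) and DUSP14 (0.97), the last 3 named after their values were seen.

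Cell cycle genes that p53 is known to lower through CDKN1A fell with the 4 natural members and miR-107-mut2. CDKN1A itself overlapped the control in all 8 lysates, with this fall or without it, and its part in the fall was not tested. Of 12 tested, 12 fell with miR-103, 11 with miR-107, 12 with miR-16, 11 with miR-195 and 11 with miR-107-mut2, with list medians of -1.84, -1.82, -1.87, -1.84 and -1.57 against 0.03, 0.01, 0.05, 0.01 and 0.03 for all genes. The shares of all genes that fell were 8.88%, 8.35%, 7.45%, 7.22% and 7.58%. PLK1, a mitotic kinase, fell with changes of -2.40, -2.62, -2.20, -2.21 and -1.99 in these 5 lysates, and CCNB2, a mitotic cyclin, with changes of -2.13, -1.92, -2.71, -2.42 and -1.84. In the miR-320, miR-15b* and miR-107-mut1 lysates 1, 1 and 0 of the 12 fell, BIRC5 with miR-15b* (-0.85) and E2F1 with miR-320 (-0.89). Of all genes 1.5%, 4.04% and 5.44% fell there. The neuronal marker ENO2 rose in the lysates of the 4 natural members and both altered forms (0.58 to 1.51), and NCAM1 fell in 5 of them and rose with miR-107-mut1 (0.58). The part of these marker shifts in the members' changes was not tested. In bulk RNA, fewer cells of a kind and less RNA per cell cannot be told apart.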

How the data were processed

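Argonaute immunoprecipitates and total lysates of 9 transfections were read on 54 arrays, with 3 biological replicates per group. The deposited values are log2 intensities. The submitters' processing notes name RMA and Expression Console 1.1 (Affymetrix) as the authors' tools, and settings are not given in the sources used here. The log base is not stated, and log2 was inferred from the range of the values. The IP and lysate arrays had different mean levels, so the fractions were fitted apart, and across fractions only the IP change minus the lysate change was tested. Precision is limited by the number of arrays, as intensities carry no counts.

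The platform annotation tied 19460 of the 33297 probe sets to a single symbol, 1754 to several symbols and 12083 to none. Of the 19460, 19429 were renamed through the gene ID and 31 kept their symbol. Where several probe sets read a gene (769 genes), that of highest mean stood for it. The lowest 40% of 18417 genes, under a mean of 5.26, were left out. limma 3.58.1 (R 4.3.3) fitted the 9 groups of a fraction on its 27 arrays, and the interaction on all 54, with Benjamini-Hochberg adjustment over 11050 genes. The fit was tested on simulated data. Tables and plots were made with pandas 2.3.3 and matplotlib 3.10.9 in Python 3.11.15.

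Members called in at least 1 lysate or IP comparison are described with their values, by array for those called most often or changed most, and the rest by range. Of the other lists, MDM4 and at most 4 genes each are named, those called in the most lysates. The members and lists were chosen with earlier results of these data known. The alternatives were no filter, leaving out the lowest 60%, cyclic loess, a replicate block, array quality weights, only the arrays compared, a pooled control (the mean of the miR-320, miR-15b* and negative control groups), omission of single arrays and, chosen after seeing the data, the 4 arrays that stand apart left out.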

Additional observations from a re-analysis of the deposited data

Results flagged for a closer look

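For 5 p53 target genes the change in the Argonaute IP differed from the change in the lysate, by limma's test of the difference on all 54 arrays. With miR-103 and miR-107 together the IP change minus the lysate change was -1.92 for CCNG1 (adjusted p = 0.008), -1.81 for PMAIP1 (0.013), -1.80 for TNFRSF10B (0.0087) and -2.08 for TP53INP1 (2.3e-04). With miR-16 and miR-195 together it was -1.04 for AEN (0.032) and -1.70 for TP53INP1 (0.0056). After cyclic loess TNFRSF10B and TP53INP1 were still called (-1.05 and -1.53 with miR-103 and miR-107, adjusted p = 0.014 and 8.8e-04, and -1.29 for TP53INP1 with miR-16 and miR-195, adjusted p = 0.01), and CCNG1 (-1.16, 0.097), PMAIP1 (-1.18, 0.069) and AEN (-0.73, 0.19) were not. Without negative control IP replicate 3 the differences of CCNG1 and PMAIP1 were -1.62 and -1.67 (0.059 each). The AEN call was lost without replicate 1 or 2 of the miR-16 or miR-195 IP, replicate 2 of either lysate, control IP replicate 1 or 3, or control lysate replicate 2 or 3 (0.052 to 0.14), and with only the arrays compared (0.099). Among the cell type markers VIM differed in the first comparison (-0.95, adjusted p = 0.027) and NCAM1 in the second (1.25, 0.0079), and their part was not tested. Both comparisons share the 6 negative control arrays, and the fit did not pair the IP and lysate arrays of a replicate.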

How the results depend on the processing

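No change of a called member turned its direction under any alternative run, while the number of the 26 members called moved. Array quality weights gave 17 calls in the lysates of miR-103 and miR-195, 14 for miR-107, 16 for miR-16 and both altered forms, 7 for miR-320 and 13 for miR-15b*, where 16.7% to 48.5% of all genes were called. In the IP they gave 6 for miR-103 and miR-107, 1 for miR-16, miR-195 and miR-107-mut1, 3 for miR-15b* and 2 for miR-107-mut2 (1.69% to 10.4% of all genes). They gave 11 for miR-16 and miR-195 against miR-103 and miR-107, 8 for miR-107-mut1 against miR-107, and 9 and 7 for the IP change minus the lysate change of the 103/107 and 16/195 pairs. With a replicate block there were 13 calls for miR-103, 1 for miR-320, 6 for miR-15b* and 9 for miR-107-mut1 in lysates (25.6%, 6.07%, 13.7% and 14.4% of all genes). In the IP the block gave 5 for miR-103, 9 for miR-107, 1 for miR-16, miR-195 and miR-107-mut2 and 2 for miR-15b*, and 7 and 6 for the IP minus lysate changes (1.41% to 17.6% of all genes in these comparisons). The block ended none of the 72 single calls. Same-numbered arrays of different groups deviated together with a mean r of 0.307 in lysates (-0.469 to 0.949) and 0.266 in the IP (-0.146 to 0.672), against -0.136 and -0.133 for arrays of other numbers. Of 108 same-numbered pairs 79 and 84 exceeded 0.1, and 21 and 25 of 27 arrays lay nearest their own number, a hint of pairing from the data. No label gives a shared source and not every pair exceeded 0.1, so the block was kept as an alternative. With only the arrays compared there were 2 calls for miR-16 and miR-320, 0 for miR-15b*, 9 for miR-107-mut1 and 11 for miR-107-mut2 in lysates, 5 for miR-103 and miR-107 in the IP, 6 for miR-107-mut1 against miR-107, and 7 and 1 for the IP minus lysate changes (0.452% to 26.9% of all genes). Against the mean of 3 controls there were 5 for miR-195 and 2 for miR-107-mut1 in lysates, and 5 for miR-103, 8 for miR-107 and 1 each for miR-16 and miR-107-mut2 in the IP (0.796% to 16.1% of all genes). Cyclic loess gave 4 for the miR-103 IP and no filter 3 for the miR-107-mut1 lysate. Without the arrays that stood apart there were 4 for miR-320 and 10 for miR-107-mut1 in lysates, 4 for miR-103 and 6 for miR-107 in the IP, 6 for miR-107-mut1 against miR-107 and 4 for the 16/195 IP minus lysate change. The causes of these shifts were not tested.

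With 1 array left out at a time the lysate calls numbered 5 to 7 for miR-103, 4 to 7 for miR-107, 6 to 12 for miR-16, 3 to 10 for miR-195, 0 to 1 for miR-320, 0 to 2 for miR-15b*, 1 to 3 for miR-107-mut1 and 3 to 4 for miR-107-mut2. In the IP they numbered 0 to 1 for miR-103, 1 to 5 for miR-107, 1 to 3 for miR-320, 0 to 2 for miR-15b* and 0 for the others. They numbered 5 to 8 for miR-16 and miR-195 against miR-103 and miR-107, 3 to 4 for miR-107-mut1 against miR-107, 0 for miR-107-mut2 against miR-107, and 2 to 5 and 1 to 3 for the IP minus lysate changes. Over these omissions 1.26% to 22.2% of all genes were called in the lysates and 0.0543% to 12.7% in the IP against the negative control, and 0% to 11.7% in the other comparisons.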

Other observations

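In the Argonaute IP some genes related to the p53 pathway moved in ways that the member list does not show, by limma over all genes tested. PRDM1, which encodes a transcriptional repressor, rose with miR-107-mut1 (2.71 ± 0.42, adjusted p = 8.5e-04), and NINJ1, a p53 target with a part in membrane rupture, rose with miR-103 and miR-107 (1.59 and 1.40, adjusted p = 0.022 and 0.033). CDC25C, the phosphatase that starts mitosis, was lower in the IP with miR-103, miR-107, miR-16, miR-195 and miR-107-mut2 (-2.77 to -2.20, adjusted p = 0.0018 to 0.025). It was called lower in 5 lysates too, with a largest absolute change of 1.72. Its IP change minus its lysate change was not called for either pair of natural members. These genes were named after their values were seen.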
